A study of Mus musculus with 96 samples.

Results

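Small RNA was sequenced from cardiac fibroblasts (FB) and hematopoietic cells (HC) of the mouse heart at day 3 (D3) after acute myocardial infarction (AMI), and the mature microRNA (miRNA) counts of both cell types were compared. The comparison held 8 of the 96 libraries of the series, 4 of FB D3 and 4 of HC D3, taken by the cell type and day in the sample titles. All 1978 mature miRNA entries of the deposited tables were used. The series covers cardiomyocytes (CM), endothelial cells (EC), FB and HC at 6 time points, of which D0 is the heart without infarction. All mice were inbred C57Bl/6J males of 12 to 14 weeks that carried no engineered allele, and at D3 every one of them had undergone permanent ligation of the left coronary artery branch, so both groups shared genotype and injury. HC were the cells that bound anti-CD45 beads, taken from the digested heart after cardiomyocytes had been spun out. FB were the cells that neither anti-CD45 nor anti-CD144 beads retained and that attached to a dish within 40 minutes, most of them positive for DDR2. Each library was made from RNA pooled over 3 mice (2 where a sample was missing), with 150 ng of RNA and 15 PCR cycles in both cell types. Libraries were prepared in batches by cell type, so the batch and the cell type cannot be told apart. RNA from bulk isolates was measured, so fewer cells of a type and less miRNA per cell cannot be told apart either.

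miRNAs are short RNAs cut from hairpin precursors, and a mature strand guides the silencing machinery to messenger RNAs that pair with its seed, the bases near its 5′ end. Either arm of a hairpin can be kept, and hairpins that lie close together are often cut from 1 primary transcript. Cardiac fibroblasts and other mesenchymal cells are known for the miR-199 and miR-214 hairpins and leukocytes for miR-142 and, in myeloid cells, miR-223. After infarction neutrophils, monocytes and macrophages enter the heart and fibroblasts proliferate and begin to lay down matrix.

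The following mature sequences carried the largest or most telling differences, from RefSeq for GRCm38.p6. They are given 5′ to 3′ with the seed (bases 2 to 8) in capitals. The first group was high in FB, the second was high in HC.
miR-199a-3p: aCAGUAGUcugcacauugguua
miR-199a-5p: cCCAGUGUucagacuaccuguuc
miR-214-3p: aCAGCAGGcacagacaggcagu
miR-127-3p: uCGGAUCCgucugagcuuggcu
miR-541-5p: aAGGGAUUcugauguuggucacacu
miR-382-5p: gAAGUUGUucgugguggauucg
miR-142a-3p: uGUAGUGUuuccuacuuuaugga
miR-142a-5p: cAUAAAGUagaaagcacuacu
miR-223-3p: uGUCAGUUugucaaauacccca
miR-511-3p: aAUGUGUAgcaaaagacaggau
miR-340-5p: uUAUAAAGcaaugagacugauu

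A further set shared the seed AGCAGCA and yet was split between FB and HC. Its members differed from each other only outside the capitals.
miR-195a-5p: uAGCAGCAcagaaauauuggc
miR-497a-5p: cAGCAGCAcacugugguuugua
miR-16-5p: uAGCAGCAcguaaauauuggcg
miR-15b-5p: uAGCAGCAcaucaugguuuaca
miR-15a-5p: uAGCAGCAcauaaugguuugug
miR-322-5p: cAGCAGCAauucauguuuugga

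The let-7 and miR-125 pairs are shown because members with one seed differed by unequal amounts, let-7b and miR-125b more than let-7g and miR-125a.
let-7b-5p: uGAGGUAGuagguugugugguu
let-7g-5p: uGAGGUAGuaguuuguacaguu
miR-125b-5p: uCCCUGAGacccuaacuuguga
miR-125a-5p: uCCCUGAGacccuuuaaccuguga

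These miRNAs came from different kinds of locus (GRCm38.p6 coordinates of the mature strand, GENCODE annotation). miR-199a-3p lay at chr1:162217883-162217904 and miR-214-3p at chr1:162223438-162223459, both on the plus strand in an exon of the non-coding gene Dnm3os, which is antisense to an intron of Dnm3. A further copy of the miR-199a hairpin lay antisense to an intron of Dnm2 at chr9:21496498-21496519. miR-127-3p lay at chr12:109592888-109592909, antisense to an exon of Rtl1, and miR-541-5p at chr12:109742422-109742446 in an intron of Mirg, both within the imprinted Dlk1-Dio3 region. Among the HC miRNAs, miR-142a-3p lay at chr11:87756903-87756925 in an intron of Mir142hg, miR-223-3p at chrX:96242884-96242905 in an exon of F630028O10Rik, and miR-340-5p at chr11:50069720-50069741 in an intron of Rnf130. miR-511-3p lay at chr2:14261051-14261072 in an intron of Mrc1, the gene of the macrophage mannose receptor. Of the AGCAGCA miRNAs, miR-195a-5p lay at chr11:70235062-70235082 beside miR-497a-5p at chr11:70234730-70234751, and miR-15b-5p at chr3:69009775-69009796 in an intron of Smc4. miR-16-5p has a copy beside miR-15b, at chr3:69009918-69009939, and another at chr14:61631936-61631957. let-7b-5p lay at chr15:85707325-85707346 and let-7g-5p at chr9:106178846-106178867 in an intron of Wdr82.

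The 4 FB libraries held 10117069 to 21688283 mature counts and the 4 HC libraries 3245029 to 24081381. Reads without a mature match were 37.0% ± 2.41 of all reads in FB and 60.9% ± 1.64 in HC (SD, n = 4 each), a difference of -23.9 percentage points (exact two-sided permutation test, p = 0.0286, the smallest that 70 arrangements allow). The share with neither a mature nor a hairpin match was 14.8% ± 3.18 in FB and 32.0% ± 2.46 in HC. The number of mature miRNAs with a count was 831 to 899 in FB and 767 to 1039 in HC. CPM denotes counts per 1000000 mature counts of the library. On log2 CPM with library sizes adjusted by TMM factors, the root mean square distance over 339 miRNAs was 2.85 to 3.13 between an FB and an HC library. Within FB it was 0.51 to 0.65, and within HC 0.42 to 0.79. In 9 sets, 19 miRNAs had identical counts in all 8 libraries, among them miR-199a-3p with miR-199b-3p and miR-486a-5p with miR-486b-5p, so their reads cannot be divided between the loci.

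Most of the measured miRNAs differed between FB and HC. Of 550 mature miRNAs with enough counts, 440 (80.0%) had a Benjamini-Hochberg adjusted p below 0.05 by edgeR's quasi-likelihood test, 225 higher in FB (40.9%) and 215 higher in HC (39.1%). At least 2-fold differences were found for 375 (68.2%), 190 higher in FB (34.5%) and 185 higher in HC (33.6%). Against such a background a share of called members says little by itself, and sizes are given beside each count. The miRNAs higher in FB by 2-fold took 50.6% to 52.0% of the counts of an FB library and 13.6% to 16.2% of those of an HC library. Those higher in HC took 15% to 19.6% of an HC library and 1.80% to 2.20% of an FB library.

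The scale between cell types was not fixed by the data. The log2 fold changes given here, FB minus HC, use TMM factors, which put the median miRNA at -0.08. Scaling by library size alone put it at -0.82, a shift of 0.74 toward HC for the median miRNA, and 52 of the 550 miRNAs then had the opposite sign. With library size the 2-fold calls were 163 higher in FB and 253 higher in HC, and 163 and 185 were called under both scales. CPM values below are per library size, so a miRNA near equal CPM has a positive log2 fold change. On CPM, the 4 FB and 4 HC values did not overlap for 435 miRNAs (79.1%), 169 of them higher in FB (30.7%) and 266 higher in HC (48.4%).

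**Figure D1:**
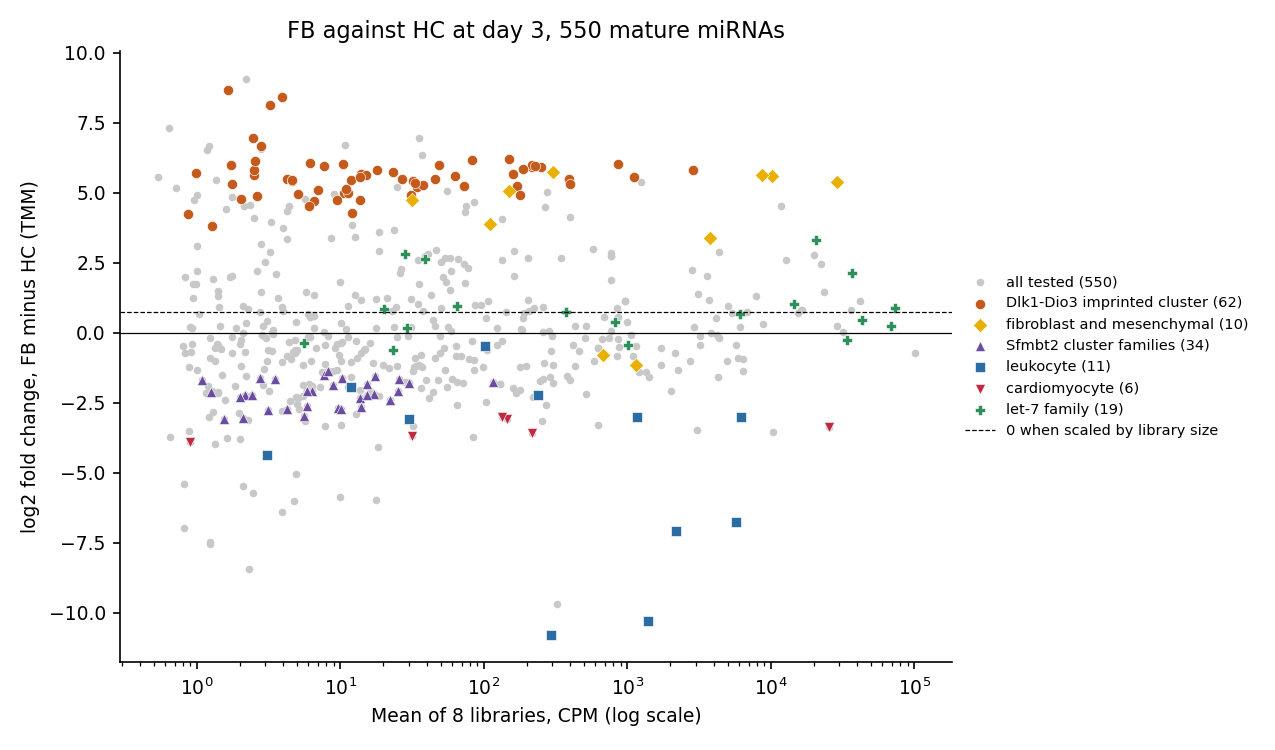
Each point is 1 of 550 mature miRNAs, with its mean CPM over the 8 libraries (log axis) against the log2 fold change FB minus HC on the TMM scale, and coloured symbols mark list members with their number. The Dlk1-Dio3 miRNAs lie in a band with a median of 5.53, the Sfmbt2 families around -2.16, and the dashed line shows where 0 lies, for the median miRNA, when only library size is used (0.74).

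miRNAs of the miR-199 and miR-214 hairpins were far higher in FB. miR-199a-3p, one of the most abundant miRNAs of FB, measured 63338, 56404, 60008 and 44356 CPM in the 4 FB libraries and 1796, 2391, 2143 and 2525 CPM in the 4 HC libraries. The groups did not overlap, and the lowest FB library stood far above the highest HC library. The log2 fold change was 5.39 ± 0.23 (SE, edgeR quasi-likelihood, adjusted p = 1.22e-13). Its partner strand miR-199a-5p measured 24868, 21016, 18375 and 14879 CPM in FB and 544, 699, 549.5 and 892 CPM in HC. miR-199b-5p, from the related hairpin, had a log2 fold change of 5.64 and miR-214-3p, cut from the same Dnm3os transcript as miR-199a, one of 5.73. miR-214-3p was far less abundant, at 662, 605, 543 and 536 CPM in FB and 22, 22.5, 14.3 and 13.3 CPM in HC. All 4 mature strands of the Dnm3os cluster were higher in FB, with a median of 5.49.

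Of the 10 fibroblast and mesenchymal markers, 8 were higher in FB by at least 2-fold and 1 was higher in HC, with a median log2 fold change of 4.91 against -0.08 over all miRNAs tested. miR-152-3p, a member of the miR-148 family, measured 5869 to 7179 CPM in FB and 928 to 1220.5 CPM in HC. miR-455-3p, a cartilage-associated miRNA, reached 34.1 to 77.6 CPM in FB and 2.54 to 4.57 CPM in HC. The 2 strands of miR-140, which is best known from cartilage, went the other way. miR-140-3p measured 417, 525, 467 and 540.0 CPM in FB and 1827, 1701, 2125 and 1675 CPM in HC, a log2 fold change of -1.16 ± 0.23 (edgeR, adjusted p = 0.000125), and miR-140-5p had one of -0.78. The 10 markers summed to 79455 to 118688 CPM in FB and 6734 to 7835 CPM in HC, and none was at 0 in either group. In HC, miR-199a-3p, miR-199a-5p, miR-199b-5p and miR-214-3p stood at 3.95%, 3.39%, 3.28% and 3.07% of their FB level.

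**Figure D2:**
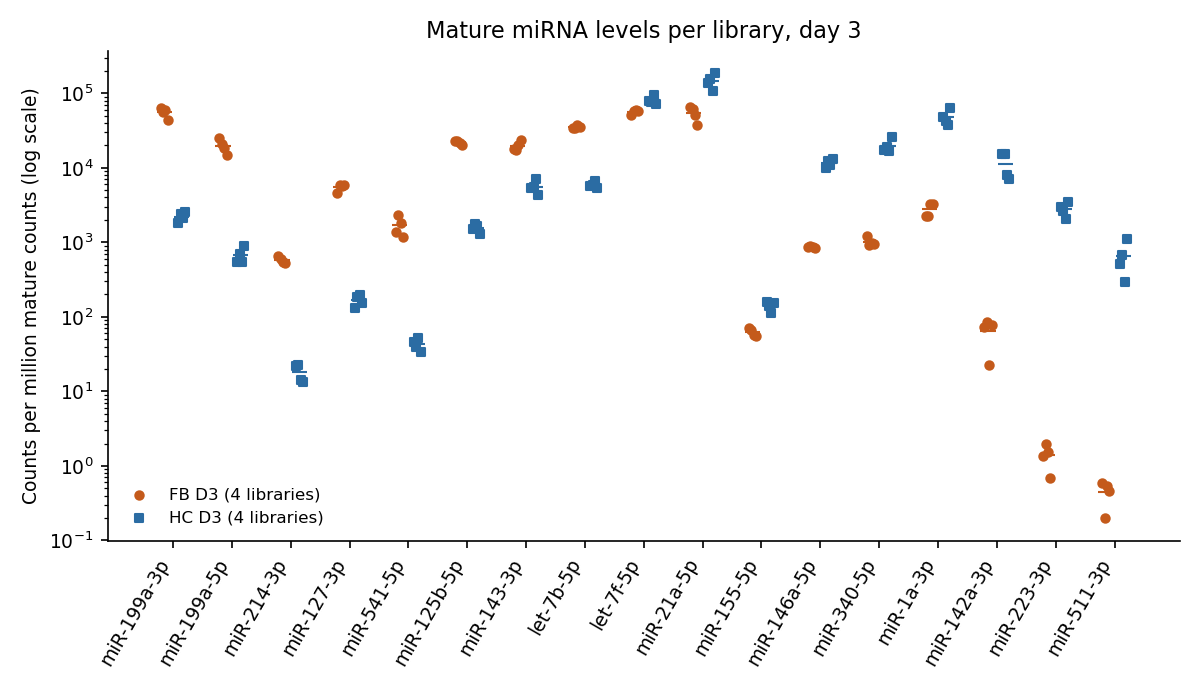
CPM (log axis) of 17 mature miRNAs in each of the 4 FB D3 (circles) and 4 HC D3 (squares) libraries, with the group mean as a line. miR-199a-3p sits at 44356 to 63338 CPM in FB and 1796 to 2525 CPM in HC, miR-223-3p at 0.692 to 1.98 CPM in FB and 2065 to 3459 CPM in HC, and miR-155-5p at 54.9 to 71.5 CPM in FB and 113 to 159 CPM in HC.

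The miRNAs of the imprinted Dlk1-Dio3 region on chromosome 12, which are expressed from the maternal allele, were the largest block on the FB side. Of 96 listed members 62 had enough counts, and all 62 were higher in FB by at least 2-fold. For 36 of them the direction was set by the count filter, which they passed through FB alone. The other 26 reached the count minimum in all libraries of both groups, and these did not overlap on CPM and had log2 fold changes of 4.26 to 6.21 with a median of 5.53. The 34 members not tested had at most 70 counts in any library, 10 of them none, and together held 523 counts in FB and 39 in HC. By position, 43 of 43 tested strands at chr12:109709065-109747949 and 17 of 17 at chr12:109563744-109595387 were higher in FB, counts that include members with the direction set by the filter. Summed over the list, FB libraries held 13475 to 19836 CPM and HC libraries 426 to 609.9 CPM.

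The most abundant of them was miR-127-3p, which lies antisense to the retrotransposon-derived gene Rtl1. It measured 4628, 5963, 5703 and 5945 CPM in FB and 132, 188, 199 and 151 CPM in HC. Its log2 fold change was 5.80 ± 0.28 (edgeR, adjusted p = 6.49e-13), and the groups did not overlap. miR-541-5p measured 1383, 2352, 1819 and 1196 CPM in FB and 45.6, 39.3, 52.0 and 34.2 CPM in HC. miR-382-5p, at 259.7, 422, 304 and 185 CPM in FB and 7.63, 6.06, 8.02 and 3.70 CPM in HC, had the largest positive change, 6.21 ± 0.35, of the miRNAs that averaged 100 CPM or more and did not overlap. Of the 10 largest such changes, 9 were Dlk1-Dio3 miRNAs (miR-382-5p, miR-541-5p, miR-379-3p, miR-411-3p, miR-337-5p, miR-134-5p, miR-434-3p, miR-127-3p and miR-409-3p, between 5.66 and 6.21), and the other was miR-214-3p. The next one below this limit, miR-199b-5p, had 5.64. Among the FB libraries replicate 2 was the highest and replicate 4 the lowest of the 4 for miR-382-5p, miR-541-5p, miR-379-3p and miR-134-5p, although not for miR-127-3p.

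The HC side was led by the leukocyte miRNAs. miR-223-3p, a regulator of granulocyte production, measured 2949, 2669.9, 2065 and 3459 CPM in HC and 1.35, 1.98, 1.53 and 0.692 CPM in FB, where it had 15 to 23 counts a library. Its log2 fold change was -10.30 ± 0.37 (edgeR quasi-likelihood, adjusted p = 1.36e-14). Its partner strand miR-223-5p measured 442 to 792 CPM in HC and had 0, 3, 2 and 7 counts in the FB libraries. The groups thus stood more than 3 orders of magnitude apart for both strands. Both strands passed the count filter through HC alone, which set their direction. miR-142a-3p, which is common to blood cell lineages, measured 15223, 15310.3, 7937 and 7059 CPM in HC and 72.8, 85.8, 22.7 and 77.0 CPM in FB, a log2 fold change of -6.75 ± 0.41 (edgeR, adjusted p = 9.70e-12). FB replicate 3 was the lowest FB library for both miR-142a strands, with miR-142a-5p at 7.94 CPM against 15.8 to 30.8 CPM in the others. miR-511-3p, hosted by the macrophage gene Mrc1, measured 517, 669, 293 and 1115 CPM in HC and had 10, 2, 7 and 10 counts in FB, and its log2 fold change was -9.68 ± 0.48. The filter set the direction of miR-511-3p too, as it passed through HC alone.

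Of the 11 leukocyte markers, 10 were higher in HC by at least 2-fold and none in FB, with a median log2 fold change of -3.07. For 3 of the 11 the count filter set the direction, as they passed it through HC alone. The other 8 reached the count minimum in both groups, and 7 of these were higher in HC by at least 2-fold. The log2 fold changes of the 8 ran from -7.07 to -0.46. On CPM all 11 were higher in every HC library than in any FB library, as were 48.4% of all miRNAs tested. The summed level was 26965 to 38577 CPM in HC and 1163 to 1293 CPM in FB, and no member was at 0 in all libraries of a group. The FB level as a share of the HC level differed among them. It was 0.567% for miR-142a-3p, 0.467% for miR-142a-5p and 0.0497% for miR-223-3p. It was 7.34% for the lymphocyte miRNA miR-150-5p, 12.7% for miR-342-3p, 7.43% for miR-146a-5p and 44.0% for miR-155-5p.

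miR-146a and miR-146b share the seed GAGAACU and act as brakes on innate immune signalling. miR-146a-5p measured 9945, 12401, 10990.5 and 13129.9 CPM in HC and 861, 887, 866 and 841 CPM in FB. The FB libraries differed little from each other and lay well below all HC libraries (log2 fold change -3.01 ± 0.22, edgeR, adjusted p = 9.69e-11). miR-146b-5p measured 3101 to 4155 CPM in HC and 444 to 572 CPM in FB, a log2 fold change of -2.09. miR-155-5p, an activator of inflammatory responses in leukocytes, was the exception among the leukocyte markers. It measured 159, 142, 113 and 156 CPM in HC and 71.5, 67.6, 56.6 and 54.9 CPM in FB, and its log2 fold change of -0.46 (95% interval -0.92 to 0.0025) did not pass the threshold (edgeR, adjusted p = 0.0628). On the library-size scale it was -1.18 with an adjusted p of 0.00012 in edgeR, so its call depended on the scale.

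The remaining leading HC miRNAs were of another kind. miR-340-5p, from an intron of Rnf130, measured 17514, 19186, 16684 and 25683 CPM in HC and 1201, 918, 995 and 949.8 CPM in FB. Its log2 fold change was -3.55 ± 0.23 (edgeR, adjusted p = 1.60e-11), and no library of one group reached the other. miR-339-5p measured 799.8 to 1699 CPM in HC and 64.2 to 84.8 CPM in FB. The other 3 of the 10 largest negative changes, miR-499-5p, miR-1b-5p and miR-1a-3p, belong to muscle. The next miRNA after these 10 had a log2 fold change of -3.13.

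Cardiomyocyte miRNAs were higher in HC than in FB. miR-1a-3p, the main miRNA of heart muscle and among the 5 most abundant of HC, measured 48558, 43129, 37949.9 and 63712 CPM in HC and 2286, 2279, 3242 and 3262 CPM in FB, a log2 fold change of -3.35 ± 0.26 (edgeR, adjusted p = 3.48e-10). All 6 cardiomyocyte markers were higher in HC by at least 2-fold, with a median of -3.47, and on CPM none overlapped. For 1 of them, miR-208b-3p, the count filter set the direction, as it passed through HC alone. The other 5 reached the count minimum in both groups, with a median of -3.35. All 6 summed to 38668 to 65039 CPM in HC and 2328 to 3339 CPM in FB. As a share of the level in CM at D3, the 6 stood between 4.61% (miR-499-5p) and 9.75% (miR-1a-3p) in HC and between 0.215% (miR-208b-3p) and 0.586% (miR-133b-3p) in FB. No marker was at 0 in all libraries of a group. The part of cardiomyocyte RNA in the HC differences was not tested.

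Mural, endothelial, erythroid and liver markers were higher in FB. The 4 mural cell miRNAs, from the miR-143 and miR-145a hairpins of vascular smooth muscle and pericytes, were all higher in FB, with a median log2 fold change of 2.76. miR-143-3p measured 17996, 17546, 20052 and 23725 CPM in FB and 5324, 5481, 7089.6 and 4369 CPM in HC, so HC held 28.1% of the FB level. The list summed to 18858 to 25700.0 CPM in FB and 4879 to 7404 CPM in HC. The endothelial miR-126a strands were higher in FB as well, by 1.46 for miR-126a-3p and 1.15 for miR-126a-5p. FB held 15.7% and 20.7% of the EC level at D3 and HC held 9.70% and 15.6%, and on CPM miR-126a-5p overlapped between the groups. On the library-size scale miR-126a-5p was at 0.41 and was not called (edgeR, adjusted p = 0.147).

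The 4 erythroid miRNAs were higher in FB by at least 2-fold, with a median log2 fold change of 2.87, although 2 of them overlapped on CPM. miR-451a, which is abundant in red blood cells, measured 903, 1264, 274 and 1348 CPM in FB and 187, 141, 118 and 353 CPM in HC. miR-486a-5p measured 862, 2055, 449 and 1546 CPM in FB and 357, 306, 292 and 254 CPM in HC. FB replicate 3 was the lowest FB library for each of the 4, and their summed level ran from 829 to 3776 CPM in FB and from 434 to 709 CPM in HC. The liver miRNA miR-122-5p measured 59.3, 55.6, 77.0 and 99.0 CPM in FB and 0.848, 1.70, 1.77 and 1.54 CPM in HC, a log2 fold change of 6.35 ± 0.38 (edgeR, adjusted p = 7.47e-12). For miR-122-5p the count filter set the direction, as it passed through FB alone. It was at 98.7 to 215 CPM in EC and at 0.409 to 1.29 CPM in CM at D3. Of 7 epithelial miRNAs, 1 (miR-203-3p, 1.17) was higher in FB by 2-fold and 2 (miR-200c-3p and miR-429-3p, -1.95 and -1.93) in HC, 1 had too few counts, and the summed level was 299 to 331 CPM in FB and 392 to 487 CPM in HC. The part of these other cells in the differences was not tested.

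**Figure D3:**
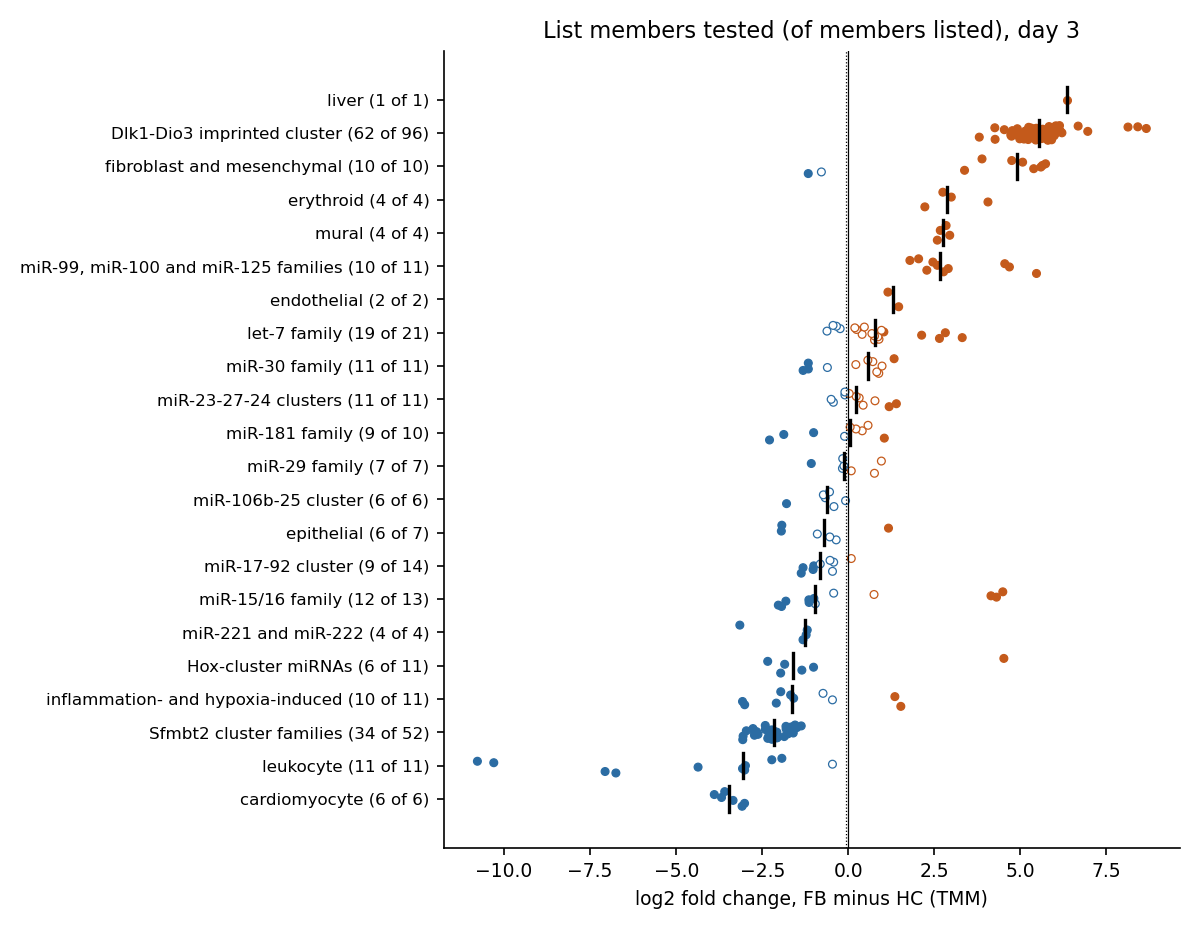
Log2 fold change FB minus HC (TMM scale) of every tested member of 22 miRNA lists, with the number tested and listed, filled where the difference was called at 2-fold or more, and with the list median as a bar. The dotted line is the median of all tested miRNAs (-0.08), and the Dlk1-Dio3 (5.53) and Sfmbt2 (-2.16) lists have no called member on the other side.

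The Sfmbt2 families (miR-297, miR-466, miR-467 and miR-669) are cut from a long repeated array of hairpins in an intron of Sfmbt2 that is particular to rodents. They were the counterpart of the Dlk1-Dio3 miRNAs at a lower level. Of 52 listed members 34 had enough counts, and all 34 were higher in HC by at least 2-fold. For 12 of them the count filter set the direction, as they passed it through HC alone. The other 22 reached the count minimum in all libraries of both groups, and these did not overlap on CPM and had log2 fold changes of -2.72 to -1.37 with a median of -2.07. The 18 not tested held 50 counts in FB and 420 in HC. miR-467a-5p measured 211, 247, 174 and 159 CPM in HC and 31.7, 31.5, 31.1 and 44.4 CPM in FB. miR-669a-5p measured 43.7 to 55.8 CPM in HC and 7.33 to 10.8 CPM in FB. The summed level was 671 to 863 CPM in HC and 109 to 125 CPM in FB. Members of these families have near-identical sequences, so a read could be counted for more than 1 of them and the members are not independent.

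The most abundant miRNAs of the 2 cell types were in part shared. let-7a-5p, let-7f-5p, miR-199a-3p (with miR-199b-3p) and miR-21a-5p led in FB, and miR-21a-5p, let-7f-5p, let-7a-5p, miR-1a-3p and let-7i-5p led in HC. miR-21a-5p, a growth-associated miRNA induced in injured hearts, measured 137652, 153953, 108936 and 187085 CPM in HC and 64804, 61134, 51854 and 37774 CPM in FB. Every HC library lay above every FB library, and the log2 fold change was -0.73 ± 0.19 (edgeR, adjusted p = 0.00172), or -1.45 on the library-size scale.

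The let-7 family, which restrains proliferation genes through 1 shared seed, was split by member. let-7b-5p measured 33715, 34078, 37692 and 35063 CPM in FB and 5778, 5894, 6751 and 5298 CPM in HC, a log2 fold change of 3.31 ± 0.22 (edgeR, adjusted p = 2.32e-11). let-7c-5p, which lies beside let-7b on chromosome 15, measured 50161 to 57998 CPM in FB and 17934 to 23582 CPM in HC, with 2.13 ± 0.21. These 2 stood clear of HC on both scales. let-7a-5p overlapped, at 70218 to 82660 CPM in FB and 59228 to 83702 CPM in HC, with a change of 0.89 that fell to 0.15 and lost its call on the library-size scale (edgeR, adjusted p = 0.301).

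let-7f-5p, let-7i-5p, let-7g-5p, miR-27b-3p and miR-27a-3p were the most abundant miRNAs whose 95% interval lay within -1 to 1, of 74 such miRNAs. let-7f-5p had a log2 fold change of 0.24 (interval -0.18 to 0.65) and let-7g-5p one of -0.24 (-0.68 to 0.21). miR-27b-3p had 0.03 (-0.38 to 0.43) and miR-27a-3p 0.23 (-0.18 to 0.64). let-7i-5p was called at 0.47 (0.05 to 0.88, edgeR, adjusted p = 0.038). On the library-size scale let-7f-5p, let-7i-5p, miR-27b-3p and miR-27a-3p changed sign, to -0.51, -0.27, -0.72 and -0.51, so no direction can be given for them. let-7g-5p went to -0.99 and was called for HC on that scale (edgeR, adjusted p = 1.22e-05), so these intervals hold on the TMM scale. Over the whole family, on the TMM scale, 5 of 19 tested members of 21 were higher in FB by 2-fold and none in HC, with a median of 0.76. The FB count was below the 34.5% over all miRNAs tested. On the library-size scale the median was 0.05, and miR-98-5p, at -1.16, was called for HC (edgeR, adjusted p = 8.84e-05). On CPM the groups did not overlap for 4 members higher in FB and 5 higher in HC.

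**Figure D4:**
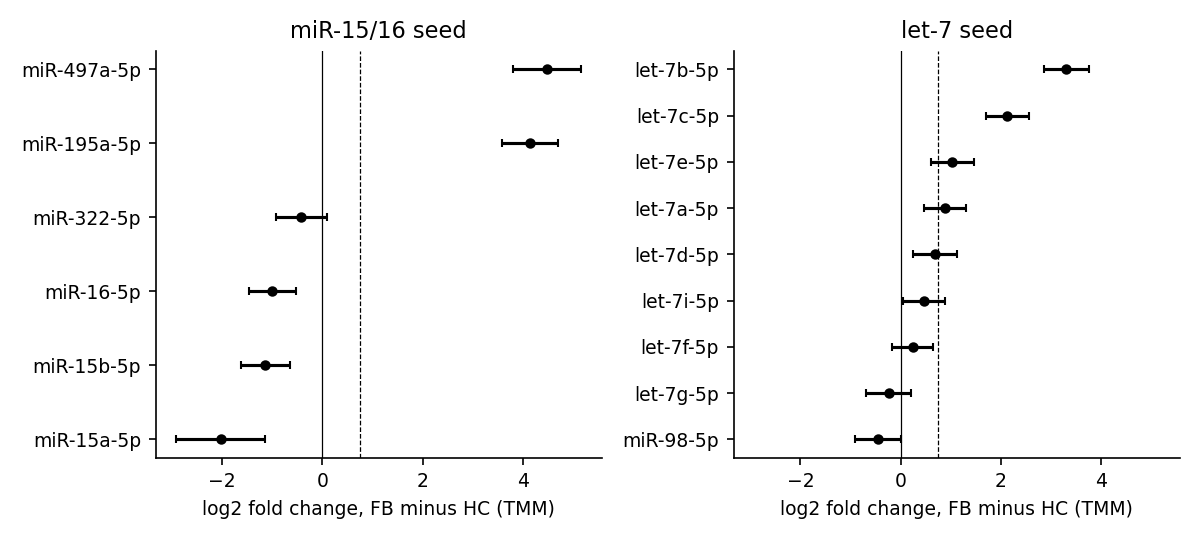
Log2 fold change FB minus HC (TMM scale, points) with the 95% interval (bars) for the tested 5p members that share the miR-15/16 seed (left) and the let-7 seed (right). miR-195a-5p (4.14) and miR-497a-5p (4.49) lie far to the FB side of miR-16-5p (-1.0), and let-7b-5p (3.31) far from let-7g-5p (-0.24), while the dashed line marks the zero of the median miRNA on the library-size scale (0.74).

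The miR-15/16 family, known for holding back the cell cycle, held 6 tested miRNAs with the seed AGCAGCA, of which 2 were higher in FB by 2-fold, 3 were higher in HC and 1 was not called. miR-195a-5p measured 836, 612, 671 and 798 CPM in FB and 63.2, 82.0, 68.2 and 60.7 CPM in HC. Its neighbour on chromosome 11, miR-497a-5p, measured 762, 469.5, 423 and 331 CPM in FB and 27.5, 39.2, 20.9 and 56.7 CPM in HC. The log2 fold changes were 4.14 ± 0.27 and 4.49 ± 0.33 (edgeR, adjusted p = 1.76e-11 and 1.05e-10), and the groups did not overlap. miR-16-5p, the most abundant member, measured 1481, 1160.0, 1015 and 1399 CPM in FB and 4199, 4882, 2999.7 and 4763 CPM in HC, a log2 fold change of -1.0 ± 0.23 (edgeR, adjusted p = 0.000419). miR-15b-5p had -1.14 and miR-15a-5p -2.03, and miR-322-5p, at -0.43, was not called (edgeR, adjusted p = 0.113). When 1 library was left out, miR-16-5p ran from -1.11 to -0.85 and miR-15b-5p from -1.22 to -0.97. Their place at the 2-fold limit thus depended on single libraries. Scaled by library size, miR-322-5p was at -1.14 and was called too (edgeR, adjusted p = 0.000815), and without FB replicate 1 it was at -0.59 (edgeR, adjusted p = 0.0438). At the miR-15a and miR-16-1 locus in an intron of Dleu2, at chr14:61631894-61632096, 4 of 4 strands were higher in HC. miR-16-5p was 1 of them, and its reads cannot be divided between this locus and its copy beside miR-15b.

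Of 54 seeds with at least 2 tested members, 5 had members called at 2-fold in both directions, 18 had members called only for FB, 18 only for HC and 13 none. These counts were not split by the count filter. They include members whose direction the filter set, such as miR-208b-3p. The miR-130/301 seed was another of the 5. miR-130a-3p measured 21.9 to 44.6 CPM in FB and 3.05 to 9.24 CPM in HC, whereas miR-130b-3p measured 0.840 to 1.58 CPM in FB and 11.9 to 31.4 CPM in HC, with log2 fold changes of 2.92 and -3.31. The direction of miR-130b-3p was set by the count filter, which it passed through HC alone. In the miR-34 seed group, miR-34b-5p measured 462 to 573 CPM in FB and 16.1 to 46.5 CPM in HC, and miR-34a-5p, the p53 target, 38.9 to 50.7 CPM in FB and 151 to 433 CPM in HC. The changes were 5.02 and -1.96. The remaining seeds of this kind paired miR-329-3p with miR-362-3p and miR-455-5p with miR-5129-3p. These groups were named after their values were seen.

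The miR-99, miR-100 and miR-125 families, which often lie beside let-7 genes, were higher in FB throughout. All 10 tested members of 11 passed 2-fold without overlap on CPM, with a median log2 fold change of 2.68 and summed levels of 93716 to 110911 CPM in FB and 17890 to 29067 CPM in HC. For 1 of the 10 the count filter set the direction, as it passed through FB alone. The other 9 had a median of 2.59. miR-125b-5p measured 22919, 22670.0, 21697 and 20304 CPM in FB and 1492, 1772, 1645 and 1306 CPM in HC. Its log2 fold change of 4.55 ± 0.23 (edgeR, adjusted p = 7.35e-13) compared with 2.90 ± 0.24 for miR-125a-5p, which has the same seed. miR-99a-5p and miR-100-5p had 2.46 and 2.77. The strands let-7e, miR-99b and miR-125a, clustered on chromosome 17, were higher in FB, 6 of 6 tested at 2-fold. let-7e-5p only just passed, at 1.03 with overlapping libraries on CPM, and on the library-size scale it was at 0.30 and was not called (edgeR, adjusted p = 0.0827).

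The remaining families and clusters differed among themselves. The pair of miR-221 and miR-222, which promotes growth and is abundant in blood progenitors, had 4 of 4 strands higher in HC, with miR-221-3p at 2794 to 4593 CPM in HC and 603 to 1082 CPM in FB and a log2 fold change of -1.32 ± 0.22. For 1 of the 4 the count filter set the direction, as it passed through HC alone. Of the Hox-cluster miRNAs 5 of 6 tested members of 11 were higher in HC, led in abundance by miR-10a-5p at 9501 to 12396 CPM in HC and 1531 to 3570 CPM in FB. The sixth, miR-615-3p, was higher in FB, at 2.99 to 16 CPM against 0.170 to 1.23 CPM. It passed the count filter through FB alone, and 1 of the 5 passed through HC alone, so the filter set these directions. The proliferation clusters miR-17-92 and miR-106b-25 had 4 of 9 tested members of 14 and 1 of 6 higher in HC by 2-fold and none in FB, with medians of -0.82 and -0.61. Over all miRNAs tested 33.6% were higher in HC by 2-fold. The miR-17-92 count was near that share and the miR-106b-25 count below it. miR-106b-5p had -1.79, miR-18a-5p -1.31 and miR-17-5p -0.46, the last not called (edgeR, adjusted p = 0.115). Scaled by library size, miR-17-5p was at -1.14 and was called (edgeR, adjusted p = 0.0029).

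In the miR-30 family 1 of 11 members (miR-30e-5p, 1.33) was higher in FB by 2-fold and 3 were higher in HC, among them miR-30b-5p at -1.16. In the miR-181 family, 1 of 9 tested of 10 was higher in FB and 3 in HC. Its shared strand miR-181a-5p had -0.11, while the star strands of its 2 loci differed, with miR-181a-1-3p at -2.29 and miR-181a-2-3p at 1.05. The miR-23-27-24 clusters had 2 of 11 members higher in FB by 2-fold (miR-23a-3p 1.19 and miR-23b-3p 1.40) and none in HC. Their median was 0.23 on the TMM scale and -0.51 on the library-size scale. On CPM they summed to 58246 to 68719 in FB and 84230 to 97977 in HC. The groups did not overlap for 2 members higher in FB and 5 higher in HC, so no direction can be given for the clusters as a whole. The miR-29 family, which represses collagen genes, had 1 of 7 higher in HC and none in FB by 2-fold. No 2-fold count of the miR-30, miR-181, miR-23-27-24 or miR-29 list exceeded the share over all miRNAs tested (34.5% for FB, 33.6% for HC). miR-29a-3p, miR-29b-3p and miR-29c-3p had 0.76, -1.08 and 0.96, their libraries overlapped, and in FB replicate 1 each was at least 1.5 times its level in the other FB libraries. Without FB replicate 1 miR-29a-3p was at 0.52 and was no longer called (edgeR, adjusted p = 0.0685), and miR-29b-3p fell to -0.34 without HC replicate 2 (edgeR, adjusted p = 0.464).

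Of the inflammation- and hypoxia-induced list, 6 of 10 tested members of 11 were higher in HC by 2-fold and 2 in FB, with a median log2 fold change of -1.63. miR-147-3p, induced in activated macrophages, measured 46.6, 45.8, 46.5 and 84.7 CPM in HC and 4.39, 5.34, 4.05 and 2.49 CPM in FB. The hypoxia miRNA miR-210-3p measured 447, 466, 258 and 759 CPM in HC and 165, 109.5, 77.9 and 49.2 CPM in FB, a log2 fold change of -1.59 ± 0.31 (edgeR, adjusted p = 0.000112). The 2 members higher in FB were miR-132-3p (1.53) and miR-212-3p (1.35), which are cut from 1 transcript on chromosome 11.

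Arm use, taken as log2 of 5p over 3p counts in a library, does not depend on the scale between libraries. Of 120 hairpins whose arms both averaged 10 counts or more in both groups, 25 (20.8%) differed between FB and HC in limma with Benjamini-Hochberg adjustment, with the ratio higher in FB for 10 (8.33%) and in HC for 15 (12.5%). This count rested on single libraries, since it was 4 without HC replicate 1, 5 without FB replicate 3, 6 without HC replicate 2 and 11 without FB replicate 4. Among hairpins that averaged 50 counts or more per arm, miR-144 stood at a log2 ratio of 1.52 ± 0.54 in FB and -0.36 ± 0.31 in HC (SD, n = 4), a difference of 1.88, with the 5p strand in excess in all FB libraries and in 1 of 4 HC libraries. miR-345 went the other way, -3.13 ± 0.42 in FB and -1.36 ± 0.37 in HC, with 43 to 85 counts on the 5p arm in FB. let-7e had 8.45 ± 0.16 in FB and 10.27 ± 0.74 in HC, where the 3p arm had 48 to 210 counts. For these 3 the call held when each library was left out (limma, adjusted p = 0.00388, 0.00388 and 0.00746 with all libraries). The next hairpins by size, miR-23b (-1.68), miR-30d (1.73) and miR-191 (1.13), each lost the call when 1 of several libraries was left out.

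The difference between FB and HC at D3 was set against that at D0, in an edgeR quasi-likelihood contrast on the 48 libraries of FB and HC. Of 696 miRNAs tested, 256 (36.8%) had a difference that was not the same at D3 as at D0, 185 shifted toward FB (26.6%) and 71 toward HC (10.2%). On the library-size scale this split was 135 and 123. HC replicate 3 of D0 held 18286 counts, and without it 259 miRNAs were called, 186 and 73. The study removed an HC and an FB library of D0 as small RNA outliers, and its text does not say which. It named no small RNA library of D3 as an outlier. From its total RNA data, however, it removed 2 replicates of FB D3, again without saying which. All small RNA libraries of D0 and D3 were kept here. Leaving out a single FB library of D0 gave 233 to 254 calls, and a single HC library of D0 232 to 259. The D3 lists overlapped with those of the heart without infarction. Of the 233 miRNAs higher in FB by 2-fold at D3 in this fit, 161 were so at D0 (69.1% of the D3 list and 91.0% of the D0 list), and of the 215 higher in HC, 115 (53.5% and 71.9%). On all 6 days 138 were higher in FB and 91 in HC.

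Among miRNAs that averaged 100 CPM or more at D3, miR-155-5p had the largest shift toward FB. In FB it measured 8.91, 3.16, 6.63 and 7.03 CPM at D0 and 71.5, 67.6, 56.6 and 54.9 CPM at D3, whereas in HC it measured 163 ± 103 CPM at D0 (replicate 3 with 2 counts) and 142 ± 21.1 CPM at D3. The FB libraries of the 2 days did not overlap, and the HC libraries did. The log2 difference between cell types went from -4.21 at D0 to -0.32 at D3, a shift of 3.89 ± 0.44 (edgeR, adjusted p = 2.73e-09). For miR-486a-5p and miR-486b-5p (2.88), miR-145a-5p (2.76) and miR-126a-3p (2.48) the HC level was lower at D3. miR-126a-3p measured 70614 ± 19274 CPM in HC at D0 and 17915 ± 3141 CPM at D3, with 26521 ± 4364 and 28951 ± 9858 CPM in FB.

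Under the same limit the 5 largest shifts toward HC were those of miR-210-3p (-1.92), miR-574-5p (-1.78), miR-142a-5p (-1.68), miR-340-5p (-1.55) and miR-222-3p (-1.40). miR-340-5p measured 3675 ± 398 CPM in HC at D0 and 19767 ± 4079 CPM at D3, against 699 ± 192 and 1016 ± 127 CPM in FB, and all 4 HC libraries at D3 lay above those at D0. miR-222-3p was level at D0, with 151 ± 11.9 CPM in FB and 151 ± 28.3 CPM in HC (replicate 3 with 2 counts). At D3 it stood at 180.2 ± 25.8 CPM in FB and 681 ± 132 CPM in HC. miR-210-3p measured 37.7, 37.3, 109 and 38.6 CPM in HC at D0 (replicate 3 with 2 counts) and 483 ± 207 CPM at D3. In FB it measured 40.9 ± 14.7 CPM at D0 and 100.4 ± 49.7 CPM at D3. For miR-574-5p the log2 difference was 3.06 at D0 and 1.28 at D3, where the libraries overlapped on CPM and the difference in the 8 libraries was 0.43 on the library-size scale and not called (edgeR, adjusted p = 0.168). The miR-142a-5p shift was no longer called without FB replicate 3 of D0, at -1.25 (edgeR, adjusted p = 0.0658), and for miR-223-3p and miR-142a-3p the contrast was not called (0.49 and -1.09, edgeR, adjusted p = 0.745 and 0.140).

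**Figure D5:**
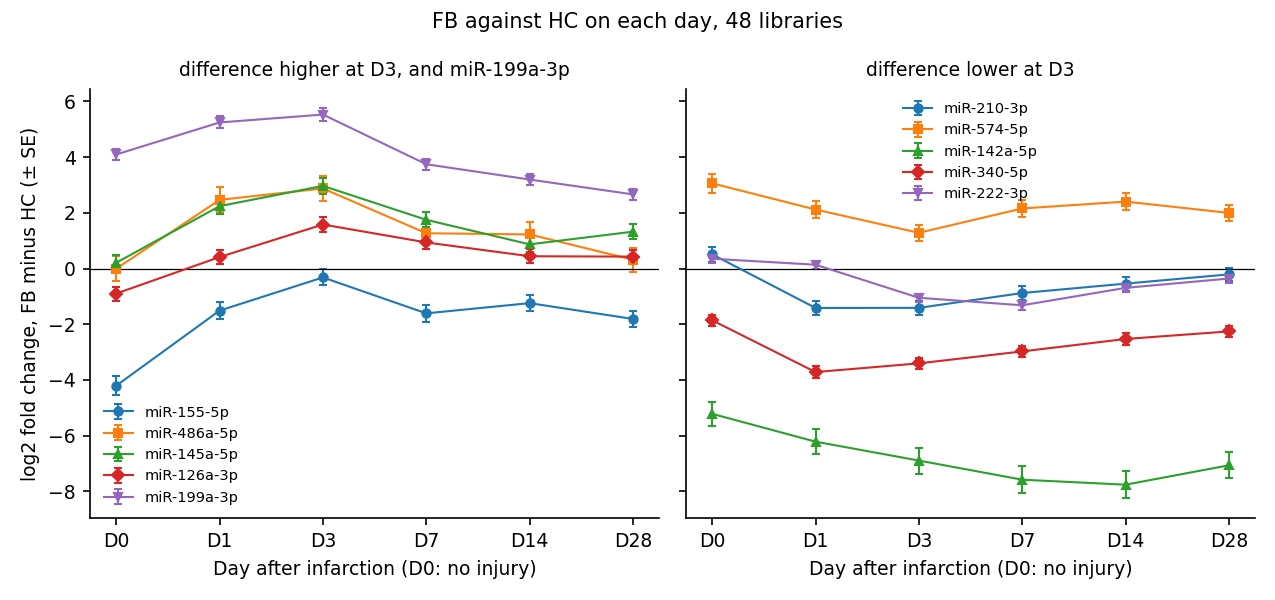
Log2 fold change FB minus HC (TMM scale, ± SE, fit of 48 libraries) on each of the 6 days for miRNAs whose difference at D3 was higher than at D0, with miR-199a-3p (left), and for those where it was lower (right). miR-155-5p runs from -4.21 at D0 to -0.32 at D3, and miR-340-5p from -1.86 to -3.41.

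The 2 clustered groups also differed by day. The median difference of the 67 Dlk1-Dio3 miRNAs tested in this fit was 4.29, 5.49, 5.64, 4.11, 3.57 and 3.20 from D0 to D28, and 38 of them were called as shifted toward FB between D0 and D3, none toward HC. On the library-size scale 27 were called. For the 43 Sfmbt2 miRNAs the median was -0.23, -2.55, -2.07, -1.45, -1.20 and -0.99 from D0 to D28, with 31 called as shifted toward HC and none toward FB, and 31 without HC replicate 3 of D0. The HC libraries of D0 summed to 0 to 159 CPM over this list and those of FB to 60.4 to 82.4 CPM, the 0 being the library with 18286 counts. In comparison the median over all 696 miRNAs was -0.12 at D0 and -0.08 at D3. In the 8 libraries, 36 of 62 Dlk1-Dio3 and 12 of 34 Sfmbt2 miRNAs passed the count filter through 1 cell type alone. The fit of 48 libraries was not split this way, so its medians and counts for both groups may include such members. Of the fibroblast markers 8 of 10 were called as shifted toward FB, of the cardiomyocyte markers 3 of 6, and of the leukocyte markers 2 of 11 in each direction. Markers of other cells were called toward FB as well, 4 of 4 mural, 2 of 2 endothelial, 6 of 7 epithelial and 1 of 4 erythroid, and none of them toward HC. Over all 696 miRNAs 26.6% were called toward FB and 10.2% toward HC. The erythroid count and the leukocyte count toward FB were not above that share. On the library-size scale 4 of 7 epithelial and 2 of 6 cardiomyocyte markers were called toward FB, against 135 of all 696. The cardiomyocyte markers summed to 86311 to 133271 CPM in HC at D0, above the level at D3, and the mural markers to 22003 to 32678 CPM against 4879 to 7404 CPM. The part of these markers in the shifts was not tested.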

How the data were processed

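The authors trimmed the reads, dropped those under 18 nt, and counted them with the nf-core small RNA pipeline against miRBase, v21 by the study's methods, although the 1978 mature names of the deposited tables include some of a later release. The submitters' processing notes name Trim Galore, Bowtie2, SAMtools and mm10, with no versions. The deposited tables hold raw read counts per mature miRNA and per hairpin. The line of reads without a match, 35.3% to 62.5% of the reads of the 8 libraries, was left out of library sizes and tests. Counts were compared with edgeR 4.0.16 (TMM factors, filterByExpr, quasi-likelihood test) on the 8 libraries, in R 4.3.3. Arm ratios were compared with limma 3.58.1 on log2((5p + 0.5)/(3p + 0.5)), and the contrast with D0 with edgeR on 48 libraries. p-values were adjusted by Benjamini-Hochberg over all features tested, with a threshold of 0.05. CPM is counts per 1000000 mature counts of the library. Both the edgeR and the limma steps were tested on simulated data. Intervals are 95%.

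Members and lists were chosen with earlier results of these data known. Named were list members a result turns on, the 10 largest changes per direction (mean of at least 100 CPM, groups apart), the 5 most abundant per group, the 5 most abundant with an interval within -1 to 1, the 3 largest arm differences per direction (50 counts per arm) and the 5 largest contrasts with D0 per direction (mean of at least 100 CPM at D3). RefSeq sequences were matched by name for 456 of 550 miRNAs. The study calls its replicates biological in one place and technical in another. p-values measure the spread between these pools. Alternatives were library-size and RLE scaling, DESeq2 1.42.0, other filters, a replicate block, all 48 libraries, 1 miRNA per set with identical counts, other pseudocounts and leaving out each library.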

Additional observations from a re-analysis of the deposited data

Results flagged for a closer look

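Of 222 groups of 4 libraries tested, 18 had a library that stood apart from the other 3 by Dixon's test at the 95% level, and chance alone gives about 1 in 20 groups. In 6 of them FB replicate 1 was the highest. It measured 676 CPM for miR-19b-3p (others 346 to 386), 103 CPM for miR-15a-5p (26.6 to 33.3), 10912 CPM for miR-29a-3p (5473 to 5972), 269.6 CPM for miR-29b-3p (68.2 to 84.3), 8614 CPM for miR-29c-3p (4293 to 4583) and 50.7 CPM for miR-34a-5p (38.9 to 40.1). The same library was the lowest for miR-212-3p, at 6.97 CPM (8.01 to 8.25). FB replicate 4 was the highest for miR-126a-3p, at 43728 CPM (23500.2 to 24354), for miR-467a-5p, at 44.4 CPM (31.1 to 31.7), and for the share of reads with no match at all, at 19.5% (12.9% to 13.8%). FB replicate 2 was the highest for miR-92a-3p, at 189 CPM (125 to 130.0), and FB replicate 3 the lowest for miR-142a-3p, at 22.7 CPM (72.8 to 85.8).

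In HC, replicate 2 had the highest total, 24081381 counts (others 3245029 to 6230557). Replicate 3 was the highest for miR-409-3p, at 15.4 CPM (7.70 to 8.35), and the lowest for miR-18a-5p, at 77.8 CPM (150.0 to 167), and for miR-19a-3p, at 505 CPM (983 to 1086). Replicate 4 was the highest for miR-147-3p, at 84.7 CPM (45.8 to 46.6), and replicate 1 the lowest for miR-122-5p, at 0.848 CPM (1.54 to 1.77).

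The difference between FB and HC was not the same at D3 as at D0 for 256 miRNAs by the contrast itself. Among the named ones the shift was -1.92 for miR-210-3p, -1.78 for miR-574-5p, -1.68 for miR-142a-5p, -1.55 for miR-340-5p and -1.40 for miR-222-3p, and 3.89 for miR-155-5p, 2.88 for miR-486a-5p and for miR-486b-5p with the same counts, 2.76 for miR-145a-5p and 2.48 for miR-126a-3p.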

How the results depend on the processing

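The counts of 440 different miRNAs and 375 different by 2-fold became 284 and 226 where a mean of at least 10 CPM was required, which left 339 miRNAs to test. With a replicate block the counts were 434 and 373, the contrast with D0 had 228 calls, and the arm ratios had 5. The pools of a day came from the same animals, but no source ties a replicate number to a pool, and same-numbered FB and HC libraries deviated together with r = -0.04, -0.14, 0.35 and -0.15, so the block may mark nothing. Leaving out 1 library gave 4 to 23 arm ratios. The difference in reads without a mature match ran from -25.1 to -23.3 points when 1 library was left out, with an exact p of 0.0571, the smallest 3 against 4 allow, and the 4 paired differences (-23.9) with a replicate block had an exact p of 0.125, the smallest possible. Small changes reversed sign. With library size only, let-7f-5p was at -0.51, let-7i-5p -0.27, miR-27b-3p -0.72, miR-27a-3p -0.51 and miR-92a-3p -0.64. With the 10 CPM minimum let-7f-5p was at -0.0030, miR-27b-3p -0.22, miR-27a-3p -0.012 and miR-92a-3p -0.14. With 1 miRNA per identical set miR-27b-3p was at -0.086 and miR-92a-3p at -0.014. miR-25-3p was at 0.0052 without a filter and 0.049 in the fit of 48 libraries, and ran from -0.18 to 0.040 when 1 library was left out. miR-181a-5p was at 0.018 in the fit of 48 libraries and ran from -0.20 to 0.048 without 1 library, and miR-92a-3p ran from -0.017 to 0.20. Of 1888 values of 117 named results under the alternatives, 1810 kept their direction and their side of the threshold, 38 lost the call, 22 gained one and 18 changed sign. For these changes the cause was not tested, apart from the scale and the filters themselves. Batch and cell type cannot be told apart, and miRNAs with too few counts in both groups were not tested.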

Other observations

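Some clusters of hairpins had all their tested strands on one side and others had few calls. On the X chromosome, the 8 tested strands of the miR-188, miR-362, miR-500, miR-501 and miR-532 hairpins (chrX:7237695-7248440, GRCm38.p6) were all higher in HC by at least 2-fold, with a median log2 fold change of -2.21. miR-501-3p measured 991, 832, 1104 and 693 CPM in HC and 83.0, 160.1, 131 and 107 CPM in FB, and miR-362-3p 389.7, 456, 263 and 855 CPM in HC and 81.2, 54.5, 39.7 and 27.3 CPM in FB. At another X-linked cluster, that of miR-322, miR-503, miR-351, miR-450 and miR-542 (chrX:53048008-53054327), 10 of 11 strands were not called at 2-fold and 1 was higher in HC. At the miR-212 and miR-132 cluster on chromosome 11 all 4 strands were higher in FB, with a median of 1.64. These clusters were chosen after their values were seen and carry no test of their own.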
